A study of Homo sapiens with 4 samples.

Results

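This is a comparison of a pair of human pancreatic carcinoma cell lines, MIA PaCa-2 and PANC-1, as they stood in PBS before any drug. The members are the 2 PBS libraries of 4 in the series, 1 of each line. The other 2 libraries are the same lines treated with cannabichromene (CBC), a plant cannabinoid. The labels give both lines as WT, with PBS or CBC as the treatment and collection at 24 h. The PBS cells of both lines were grown in DMEM with fetal bovine serum, so the comparison is between lines under 1 culture condition, and it compares 1 library of each. Both lines are commonly described as having lost CDKN2A, and each is the progeny of 1 tumour, so what differs between them need not differ between classes of tumours.

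The MIA PaCa-2 PBS library held 21742775 counts on genes and the PANC-1 PBS library held 24365261. A limit of 3 counts, which is what a count of 0 allows, was 0.135 CPM, the count scaled to a common library size, in MIA PaCa-2 and 0.132 CPM in PANC-1. Mitochondrial genes took 5.81% of the counts in MIA PaCa-2 and 4.63% in PANC-1. Levels were put on a common scale by TMM, a scaling that trims extreme genes before it compares libraries, computed from all 4. A gene entered the comparison at 1 CPM or more in at least 1 of the 2 libraries, which 14805 genes did, and it is called here when the log2 difference, PANC-1 minus MIA PaCa-2, is above 1 or below -1. There was 1 library per line, so no p-value belongs to this difference. A count of 2 was added as a prior, which sets the fitted value of genes at 0. The 95% intervals of the difference are exact binomial (Clopper-Pearson) and cover counting error only. The only other pair of the lines in the series is that of the CBC libraries, in which, by the study's methods, the lines also received different CBC doses. A test of the line difference over both treatments, with edgeR's quasi-likelihood test, Benjamini-Hochberg adjustment and treatment as a block, shares the PBS libraries and is given beside the PBS difference.

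The labelled cell type was checked against its markers. KRT8, KRT18 and KRT19, keratins that epithelial cells and carcinomas carry, summed to 3476 CPM in MIA PaCa-2 and 2030 CPM in PANC-1. PTPRC of leukocytes, PECAM1 of endothelium and HBB of red cells had 0 counts in both PBS libraries. Of 18 markers of those other cell types, 3 reached 1 CPM in a PBS library, and all 3 were higher in MIA PaCa-2 (CD14, CDH5 and LYZ, at most 5.53 CPM). The 18 markers summed to 9.76 CPM in MIA PaCa-2 and 2.95 CPM in PANC-1. The epithelial keratins were thus present, though the counts of KRT8 and KRT18 are uncertain, and the markers of other cell types were absent or low. The other defining epithelial genes CDH1, EPCAM, CLDN7, ESRP1 and GRHL2 were at or under the limit of 3 counts in MIA PaCa-2. In PANC-1, ESRP1 and GRHL2 were as well. The epithelial side of this check thus rests on the keratins. The acinar markers PRSS1, CPA1 and PNLIP had at most 1 count, and the ductal marker CFTR had 0 counts in both.

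Epithelial cells are held together by E-cadherin, tight junctions and desmosomes and contain keratin filaments. Mesenchymal cells carry N-cadherin, vimentin and fibrillar collagens instead, and transcription factors of the ZEB and SNAI families repress epithelial genes by binding short E-box motifs. Pancreatic cancers are often sorted into a classical state with endodermal factors such as GATA6 and a basal-like state with squamous factors such as TP63. Cells also differ in how they meet oxidants. The factor NRF2 (NFE2L2), held down by KEAP1, drives genes for glutathione and NADPH supply, while GPX4 removes lipid peroxides and ATF4 drives the response to amino acid shortage and stress at the endoplasmic reticulum (ER).

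The lines differed over a large part of the transcriptome. Of 14805 genes, 3548 were called higher in PANC-1 (24.0%) and 2659 higher in MIA PaCa-2 (18.0%), which is 41.9% of them in either direction. The list counts below are to be read beside these shares. With library totals in place of TMM the calls were 3182 and 3046. The median log2 difference over all genes was 0.10. Differences above 6 on the log2 scale numbered 452 with PANC-1 higher and 154 with MIA PaCa-2 higher, and those of 4 to 6 numbered 542 and 286. The large differences thus lay more often on the PANC-1 side, while those of 1 to 2 numbered 1655 and 1508. In the CBC libraries, 2918 of the 3548 genes higher in PANC-1 were again past 1 (82.2%), as were 2019 of the 2659 genes higher in MIA PaCa-2 (75.9%). Of the 6207 called genes, 19 and 7 were past 1 the other way. Across the 14805 genes the PBS and CBC differences had a Pearson correlation of 0.931 and a Spearman correlation of 0.879, which describes 2 pairs of libraries and not a set of independent genes. In edgeR's quasi-likelihood test over both treatments, with Benjamini-Hochberg adjustment, 4104 of 16381 genes were higher in PANC-1 (25.1%) and 3548 were higher in MIA PaCa-2 (21.7%) at an adjusted p under 0.05, or 46.7% in either direction. The fit had 1 residual degree of freedom and a common coefficient of biological variation of 23.0%. With no condition repeated, both rest on how the line difference changed between PBS and CBC.

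Many genes were off in one line and on in the other. A gene was counted as silent in a line when its PBS library held at most 3 counts and the other line's held at least 10 CPM. MIA PaCa-2 had 300 silent genes (2.03% of 14805), of which 221 had 0 counts and 272 were protein-coding. PANC-1 had 89 (0.601%), of which 59 had 0 counts and 71 were protein-coding. The genes silent in MIA PaCa-2 had a median of 27.7 CPM in PANC-1, where 38 exceeded 100 CPM, and those silent in PANC-1 had a median of 23.1 CPM in MIA PaCa-2, where 14 exceeded 100 CPM. The CBC library of the silent line, which the choice did not use, also held at most 3 counts for 248 of the 300 genes (82.7%) and for 72 of the 89 (80.9%). After CBC, 7 of the 300 were at 1 CPM or more in MIA PaCa-2 (ABLIM3, CBLB, CD24, PAPSS2, RASD1, TENT5C and TES, at most 65 counts) and 2 of the 89 in PANC-1 (FZD8 and ROBO4, at most 71 counts).

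**Figure D1:**
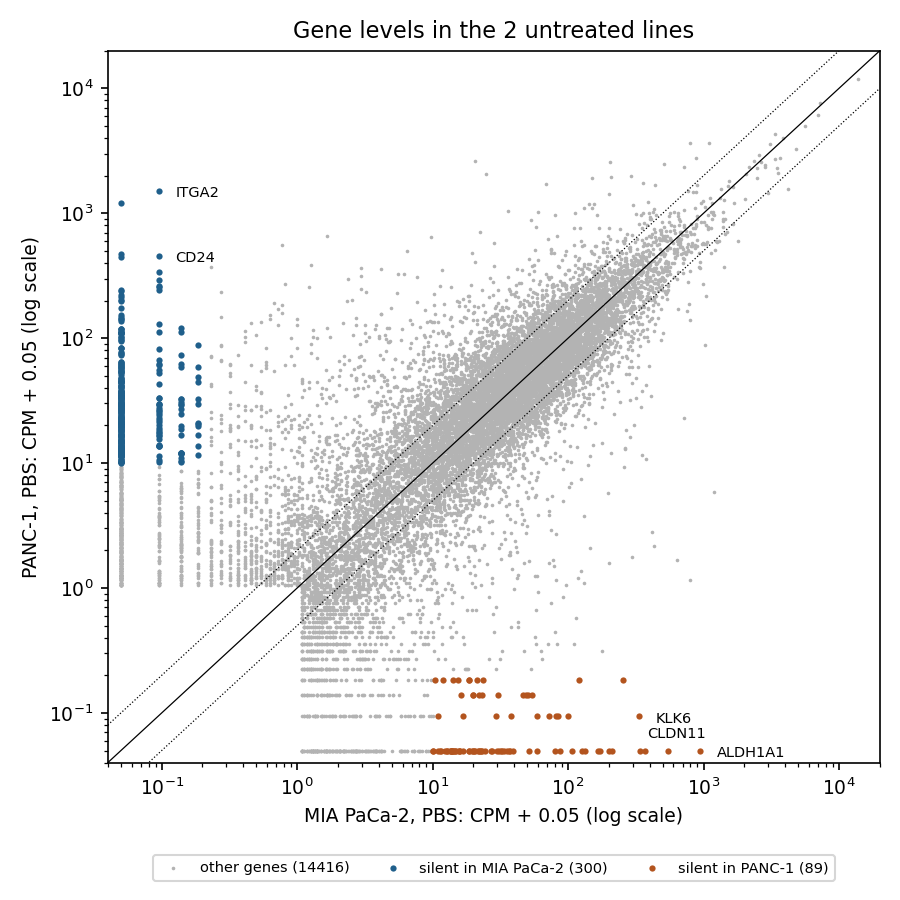
Level of each of the 14805 genes in the MIA PaCa-2 PBS library (horizontal) and the PANC-1 PBS library (vertical), in CPM plus 0.05 on log axes, 1 point per gene. The solid line marks equal levels and the dotted lines a log2 difference of 1. The 300 genes silent in MIA PaCa-2 lie along the left edge and the 89 silent in PANC-1 along the bottom.

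Promoters of the 3 protein-coding genes of each silent set with the highest level and a promoter entry are shown because their content of CG dinucleotides, the letters that DNA methylation acts on in human cells, differed between the silent sets. The sequences are from RefSeq on GRCh38.p14, 250 bases before to 50 after the gene start, written 5′ to 3′ on the gene's strand, with every CG in capitals. The first set of 3 was silent in MIA PaCa-2. ITGA2 codes for an integrin subunit that binds collagen, LDHB for a lactate dehydrogenase subunit and CD24 for a surface glycoprotein of epithelial and progenitor cells.
ITGA2, chr5:52989102-52989401, plus strand: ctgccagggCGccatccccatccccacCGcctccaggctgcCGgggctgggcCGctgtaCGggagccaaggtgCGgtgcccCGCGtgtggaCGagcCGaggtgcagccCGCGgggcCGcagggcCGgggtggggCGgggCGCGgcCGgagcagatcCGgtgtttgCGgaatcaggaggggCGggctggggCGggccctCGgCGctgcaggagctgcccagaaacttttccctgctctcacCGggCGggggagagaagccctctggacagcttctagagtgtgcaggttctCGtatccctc
LDHB, chr12:21657793-21658092, minus strand: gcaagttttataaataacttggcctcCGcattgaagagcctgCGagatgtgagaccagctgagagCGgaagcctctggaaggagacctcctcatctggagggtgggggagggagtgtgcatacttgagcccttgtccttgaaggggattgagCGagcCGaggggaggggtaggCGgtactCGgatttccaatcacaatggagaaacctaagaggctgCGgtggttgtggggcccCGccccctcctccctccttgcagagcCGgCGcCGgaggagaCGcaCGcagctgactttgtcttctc
CD24, chr6:106975578-106975877, minus strand: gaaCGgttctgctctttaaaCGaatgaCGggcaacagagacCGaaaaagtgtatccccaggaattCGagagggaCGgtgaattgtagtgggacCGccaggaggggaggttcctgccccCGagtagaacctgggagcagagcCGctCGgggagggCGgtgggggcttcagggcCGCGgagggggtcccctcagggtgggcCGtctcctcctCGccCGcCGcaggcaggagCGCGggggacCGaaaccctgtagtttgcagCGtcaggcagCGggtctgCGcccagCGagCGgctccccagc
The second set of 3 was silent in PANC-1. ALDH1A1 codes for a retinaldehyde dehydrogenase, CLDN11 for a tight-junction claudin and KLK6 for a secreted serine protease.
ALDH1A1, chr9:72953004-72953303, minus strand: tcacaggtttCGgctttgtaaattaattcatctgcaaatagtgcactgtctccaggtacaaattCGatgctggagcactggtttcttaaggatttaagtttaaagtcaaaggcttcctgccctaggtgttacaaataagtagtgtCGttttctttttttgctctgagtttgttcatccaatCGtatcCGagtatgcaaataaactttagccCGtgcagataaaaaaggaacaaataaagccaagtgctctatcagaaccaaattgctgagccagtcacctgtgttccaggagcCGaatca
CLDN11, chr3:170418618-170418917, plus strand: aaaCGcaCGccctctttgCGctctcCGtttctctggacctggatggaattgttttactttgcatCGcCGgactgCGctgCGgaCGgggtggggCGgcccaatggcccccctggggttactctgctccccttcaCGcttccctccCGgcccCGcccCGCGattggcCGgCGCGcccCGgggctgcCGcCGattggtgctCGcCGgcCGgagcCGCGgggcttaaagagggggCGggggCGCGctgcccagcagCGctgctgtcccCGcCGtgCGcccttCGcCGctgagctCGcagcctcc
KLK6, chr19:50969542-50969841, minus strand: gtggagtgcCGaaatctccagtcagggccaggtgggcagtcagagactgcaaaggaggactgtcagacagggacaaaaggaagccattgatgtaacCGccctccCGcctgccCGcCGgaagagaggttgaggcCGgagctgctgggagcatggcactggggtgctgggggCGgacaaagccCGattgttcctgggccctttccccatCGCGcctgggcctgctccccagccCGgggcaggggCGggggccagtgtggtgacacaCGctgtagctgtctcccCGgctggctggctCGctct
These windows held 27 CG in ITGA2, 14 in LDHB and 25 in CD24, against 7 in ALDH1A1, 36 in CLDN11 and 15 in KLK6. A promoter was matched for 10721 of the 14805 genes, and their median was 27 CG in 300 bases. The median was 22.5 over the 210 matched genes silent in MIA PaCa-2 and 15 over the 57 matched genes silent in PANC-1. At least 15 CG were found in 83.2% of all matched promoters, in 71.4% of those silent in MIA PaCa-2 and in 50.9% of those silent in PANC-1. Methylation was not measured in these libraries.

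The largest differences were of genes with next to no counts in one line. ITGA2 had 1 count in MIA PaCa-2 and 34457 in PANC-1 (1515 CPM), a log2 difference with a counting interval of 12.56 to 20.34, and LDHB had 0 counts and 10795, at least 3519-fold higher in PANC-1. HMGA2, a chromatin protein of embryonic and tumour cells, had 0 counts and 10113, at least 3297-fold higher. CD24 had 1 and 10360 counts. CD70, a ligand of the tumour necrosis factor family, PREX1, an activator of the GTPase RAC, BASP1, NID1 of basement membranes and IGF2BP1, an RNA-binding protein of the fetus, all had 0 counts in MIA PaCa-2 and 4508 to 5527 in PANC-1. CRYBG1, STC2, ANPEP, ALCAM and EPHB6 had 1 count each in MIA PaCa-2 and 5488 to 7715 in PANC-1. The noncoding MEG3, an imprinted transcript of chromosome 14, had 0 counts and 27381, at least 8926-fold higher in PANC-1. It was named after its value was seen. In the CBC library of MIA PaCa-2, ITGA2, LDHB, HMGA2, BASP1, IGF2BP1 and MEG3 had 0 counts, while CD24 had 65. The log2 difference of NID1 was 11.23 with PBS and 7.95 in the CBC libraries.

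On the other side ALDH1A1 had 20858 counts in MIA PaCa-2 (938 CPM) and 0 in PANC-1, at least 7109-fold higher in MIA PaCa-2, and it had 11588 and 0 in the CBC libraries. CLDN11 had 12196 and 0 counts, at least 4157-fold higher. COL1A2, a chain of type I collagen, had 8174 and 0, at least 2786-fold higher. KLK6 had 7428 and 1, with a counting interval of the log2 difference of -18.19 to -10.41. DNER, CAVIN2 of caveolae, the squamous factor TP63, AKR1C1, the vesicular nucleotide transporter SLC17A9 and KANK4 had 2395 to 4661 counts in MIA PaCa-2 and 0 in PANC-1. AK4, a mitochondrial adenylate kinase, had 5695 and 3. The genes off in PANC-1 thus include a collagen chain and a squamous factor, and those off in MIA PaCa-2 include the adhesion proteins ITGA2 and ALCAM and a fetal RNA-binding protein.

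The epithelial list leaned to PANC-1. Of 45 epithelial genes, 32 entered the comparison, 19 were called higher in PANC-1 and 6 higher in MIA PaCa-2, with a median log2 difference of 1.45 against 0.10 over all genes. In the test over both treatments 18 of 33 were higher in PANC-1 and 7 in MIA PaCa-2. CDH1 (E-cadherin) had 0 counts in MIA PaCa-2 and 32 in PANC-1, EPCAM had 0 and 264, and CLDN7 had 0 and 529. The splicing factor ESRP1 had 1 count and 0, and the epithelial factor GRHL2 had 0 in both lines. E-cadherin was thus below the detection limit in one line and at 1.41 CPM in the other.

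Other junction genes were also higher in PANC-1. F11R of tight junctions was at 2.74 CPM in MIA PaCa-2 and 58.4 CPM in PANC-1, and JUP (plakoglobin) at 8.72 and 170 CPM. SPINT2, an inhibitor of surface proteases, was at 74.7 and 479 CPM. Plakophilin and desmoplakin of desmosomes lay the other way. DSP (desmoplakin) was at 40.7 CPM in MIA PaCa-2 and 2.33 CPM in PANC-1, and PKP2 (plakophilin 2) at 10.8 and 0.792 CPM. EHF and ELF3, epithelial factors of the ETS family, had 2213 and 203 counts in MIA PaCa-2 against 1 and 0 in PANC-1. The keratins split as well. KRT19 was 3.10-fold higher in PANC-1, at 240 and 744 CPM, while KRT8 was 2.98-fold higher in MIA PaCa-2, at 1801 and 604 CPM, and KRT18 was 2.11-fold higher there. KRT8 and KRT18 have many processed copies and overlap on opposite strands in the annotation, so their counts are uncertain. CLDN4 was at 119 and 126 CPM, a log2 difference of 0.08.

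E-box letters were looked for in the promoters of the epithelial list, since ZEB1 was present in both lines. The letters searched were CAGGTG on both strands, which read CACCTG on the other. They were present in 8 of the 20 matched promoters of the list (40%), in 18.2% of all matched promoters, in 18.1% of those silent in MIA PaCa-2 and in 19.3% of those silent in PANC-1. The 3 shown are those with these letters and the largest differences, ELF3 and DSP, higher in MIA PaCa-2, and AP1M2, a sorting adaptor of epithelial cells that had 0 counts in MIA PaCa-2 and 3.17 CPM in PANC-1. Capitals mark the E-box letters.
ELF3, chr1:202010337-202010636, plus strand: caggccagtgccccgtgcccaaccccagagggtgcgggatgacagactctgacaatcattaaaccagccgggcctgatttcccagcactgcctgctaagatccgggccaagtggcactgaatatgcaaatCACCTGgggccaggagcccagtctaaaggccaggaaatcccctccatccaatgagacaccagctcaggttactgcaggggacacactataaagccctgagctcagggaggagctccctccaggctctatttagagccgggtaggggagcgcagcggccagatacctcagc
DSP, chr6:7541421-7541720, plus strand: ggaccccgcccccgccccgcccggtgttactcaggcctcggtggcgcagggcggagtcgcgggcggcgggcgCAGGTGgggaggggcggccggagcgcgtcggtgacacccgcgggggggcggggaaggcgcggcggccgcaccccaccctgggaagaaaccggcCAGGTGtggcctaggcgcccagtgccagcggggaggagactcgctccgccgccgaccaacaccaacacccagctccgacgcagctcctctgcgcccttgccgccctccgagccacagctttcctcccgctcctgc
AP1M2, chr19:10587263-10587562, minus strand: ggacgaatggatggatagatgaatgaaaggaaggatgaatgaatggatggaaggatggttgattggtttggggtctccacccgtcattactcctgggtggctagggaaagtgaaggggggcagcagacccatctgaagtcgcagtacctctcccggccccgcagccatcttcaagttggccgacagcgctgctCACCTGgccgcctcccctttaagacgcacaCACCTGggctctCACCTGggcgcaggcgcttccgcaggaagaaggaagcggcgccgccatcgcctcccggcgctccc
ELF3 held 1 such match, DSP 2 and AP1M2 3. Genes with the letters thus lay on both sides of the comparison, and a match is a description of the window only.

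The mesenchymal list split almost evenly. Of 48 genes, 37 entered the comparison, with 15 called higher in PANC-1 and 13 in MIA PaCa-2 and a median of 0.36. The test over both treatments placed 16 of 38 higher in PANC-1 and 11 in MIA PaCa-2. Both lines carried VIM (vimentin), at 3378 CPM in MIA PaCa-2 and 4329 CPM in PANC-1, a log2 difference of 0.36. The repressor ZEB1 was at 43.1 and 74.4 CPM, a log2 difference of 0.79, while ZEB2 had 0 and 70 counts. TWIST1 had 0 counts in both, FN1 (fibronectin) had 0 and 5 counts, and SNAI2 had 23 and 11.

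Which mesenchymal genes were on differed between the lines. CDH2 (N-cadherin) had 0 counts in MIA PaCa-2 and 725 in PANC-1, the matrix protease MMP2 had 0 and 1469, and the surface protein THY1 had 0 and 509. The receptor kinase AXL was at 132 and 560 CPM, and TGFBI at 13.6 and 258 CPM. Collagen chains fell on opposite sides. COL1A1 had 11 counts in MIA PaCa-2 and 3037 in PANC-1, while its partner chain COL1A2 had 8174 and 0. COL5A2 had 14104 and 37 counts, 390-fold higher in MIA PaCa-2, and the collagen receptor DDR2 had 3201 and 46. Neither line thus held both chains of type I collagen above 11 counts. In MIA PaCa-2, LOXL2, which cross-links collagen, was at 433 CPM against 115 CPM, COL6A1 at 130 against 24.1 CPM, and the actin-binding CALD1 at 134 against 19.4 CPM.

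**Figure D2:**
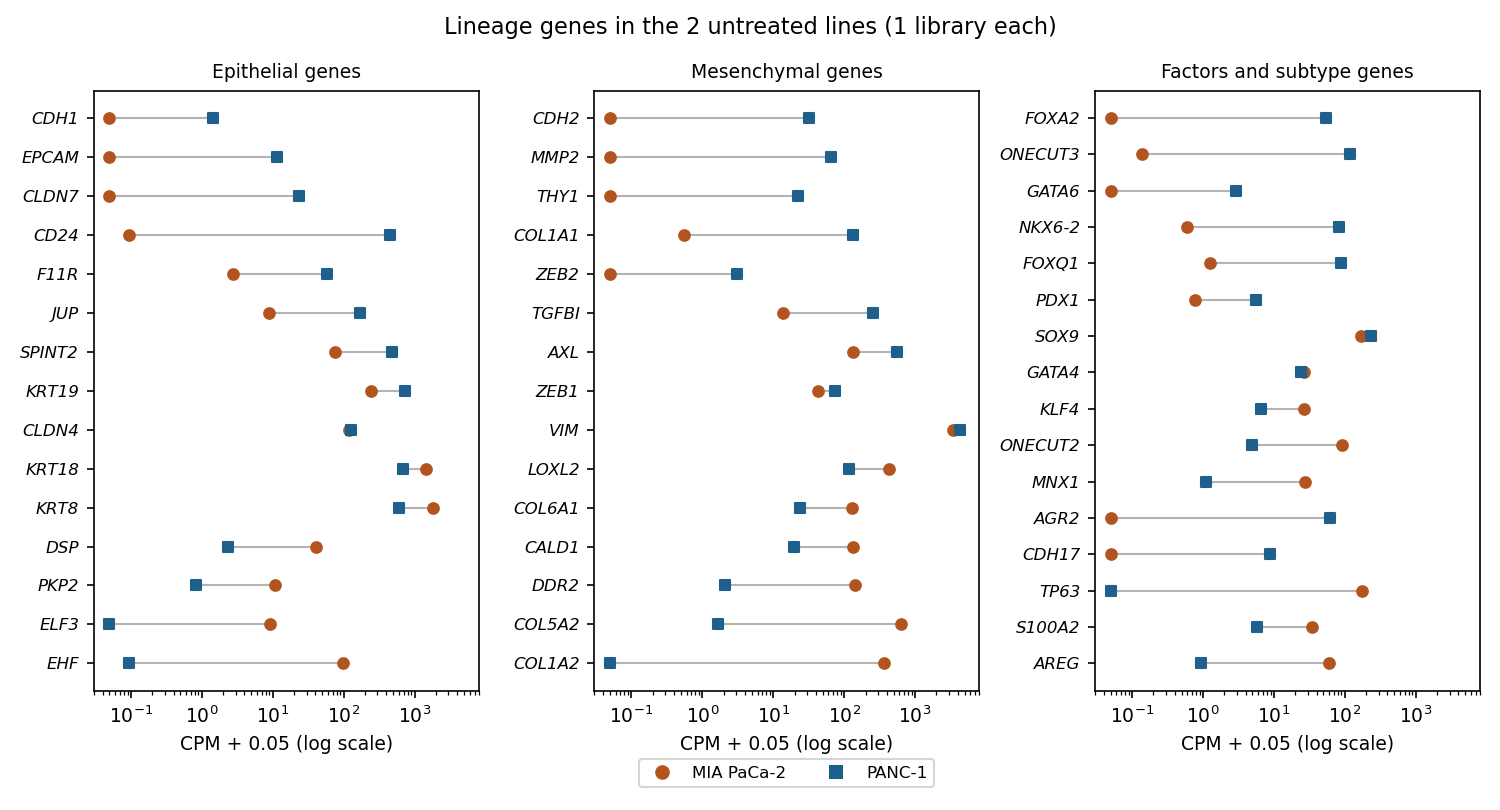
Levels of epithelial genes (left), mesenchymal genes (middle) and endodermal factors with tumour subtype genes (right) in the 2 PBS libraries, in CPM plus 0.05 on a log axis. Circles are MIA PaCa-2, squares are PANC-1, 1 library each, and the grey bar joins the 2 values of a gene. CDH1 and CDH2 are both at 0 in MIA PaCa-2, and the collagen chains COL1A1 and COL1A2 lie on opposite sides.

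Endodermal and pancreatic factors were divided, with more of them higher in PANC-1 in the PBS pair. Of 28 factors, 17 entered the comparison, with 9 called higher in PANC-1 and 5 in MIA PaCa-2 and a median of 1.06. In the test over both treatments 8 of 19 were higher in PANC-1 and 7 in MIA PaCa-2. FOXA2, a pioneer factor of the endoderm, had 0 counts in MIA PaCa-2 and 1235 in PANC-1, at least 403-fold higher. ONECUT3 had 2 and 2724 counts, NKX6-2 had 12 and 1905, and FOXQ1 was at 1.21 and 89.1 CPM. GATA6 had 0 and 66 counts and PDX1, the factor that sets up the pancreas, had 16 and 128, with a log2 difference of 0.57 in the CBC libraries. SOX9 of ductal and progenitor cells was at 168 and 233 CPM and GATA4 at 26.3 and 24.1 CPM. MIA PaCa-2 held more ONECUT2, with 2037 counts against 111, MNX1, with 608 against 24, and KLF4, with 597 against 150. HNF4A had 0 counts in both PBS libraries.

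Genes of the classical tumour subtype were little expressed. Of 29, 24 were below the filter and 18 had 0 counts in both lines, TSPAN8 among them, and the 5 above it were 4 called higher in PANC-1 and LYZ, higher in MIA PaCa-2. AGR2, a protein folding enzyme of secretory cells, had 0 counts in MIA PaCa-2 and 1397 in PANC-1, and CDH17 was at 8.93 CPM in PANC-1 with 0 counts in MIA PaCa-2. PLS1, a bundler of actin, was at 13.0 and 110 CPM, LGALS4 had 1 and 23 counts, and TFF1 had 0 and 4. Basal-like genes above the filter were more often higher in MIA PaCa-2. Of 29, 11 had 0 counts in both lines and 13 entered the comparison, 8 were called higher in MIA PaCa-2 and 2 in PANC-1, and the median was -1.60. The test over both treatments gave the same counts, 8 and 2 of 13. TP63 had 3850 counts in MIA PaCa-2 and 0 in PANC-1, the noncoding UCA1 had 7556 and 0, the EGF receptor ligand AREG had 1341 and 20, and S100A2 had 761 and 132. KRT5 had 0 counts in both and KRT17 at most 1, and AHNAK2 was 3.81-fold higher in PANC-1. TP63 was thus on in MIA PaCa-2 with KRT5 at 0 counts and KRT17 at no more than 1.

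Other pancreatic lineages left few traces. Of 36 neuroendocrine and islet genes, 9 entered the comparison, with 4 called higher in PANC-1 and 2 in MIA PaCa-2 and a median of 0.93. The islet hormones INS, GCG and SST had 0 counts in both lines, as did CHGA and NEUROD1. SYP, a vesicle protein, was at 11.6 and 19.0 CPM and ENO2 at 61.7 and 47.3 CPM. PAX6, a factor of islet and eye development, had 498 counts in MIA PaCa-2 and 0 in PANC-1, the granule protein SCG2 had 310 and 16, and the adhesion protein L1CAM had 337 and 1573, with a log2 difference of 0.79 in the CBC libraries. Of 23 acinar genes, 2 entered, 1 called each way. PRSS3, a trypsinogen that near-identical copies can share reads with, had 0 counts in MIA PaCa-2 and 479 in PANC-1. Among ductal genes, 5 of 15 entered the comparison. CA2 (1.62 and 1.54 CPM), ANXA4 (55.1 and 63.4 CPM) and NHERF1 (63.8 and 51.3 CPM) lay within a log2 difference of 1, and SLC26A6, an anion exchanger, was called higher in MIA PaCa-2, at 52.4 and 22.0 CPM.

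HOX genes, which set position along the body axis, differed most clearly between the lines in the HOXC cluster. Of 39 HOX genes, 23 entered the comparison, with 13 called higher in PANC-1 and 2 in MIA PaCa-2 and a median of 1.34. In the test over both treatments 14 of 24 were higher in PANC-1 and 3 in MIA PaCa-2. The 9 genes of the HOXC cluster summed to 276 counts in MIA PaCa-2 and 5237 in PANC-1, or 12.4 and 230 CPM. HOXC10, HOXC9, HOXC13 and HOXC11 had 0 counts in MIA PaCa-2 and HOXC4 had 1, against 16.0 to 83.0 CPM in PANC-1. HOXC6 was at 5.89 and 34.7 CPM and HOXC8 at 6.48 and 23.2 CPM, so 2 genes of the cluster were on in MIA PaCa-2 and 8 in PANC-1 above 3 counts. The HOXB cluster was on in both, at 763 and 587 CPM, with HOXB8 at 191 and 43.9 CPM and HOXB9 at 192 and 68.0 CPM. Those genes were the 2 called higher in MIA PaCa-2, and in the CBC libraries their log2 differences were -0.32 and -0.20. HOXA genes summed to 44.5 and 39.6 CPM, with HOXA3 at 35.0 and 18.7 CPM, and HOXD genes to 0 and 0.528 CPM. The 13 genes called higher in PANC-1 outnumber the 9 of HOXC, so HOXA or HOXB genes were also among them. Those are not reported here by name.

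**Figure D3:**
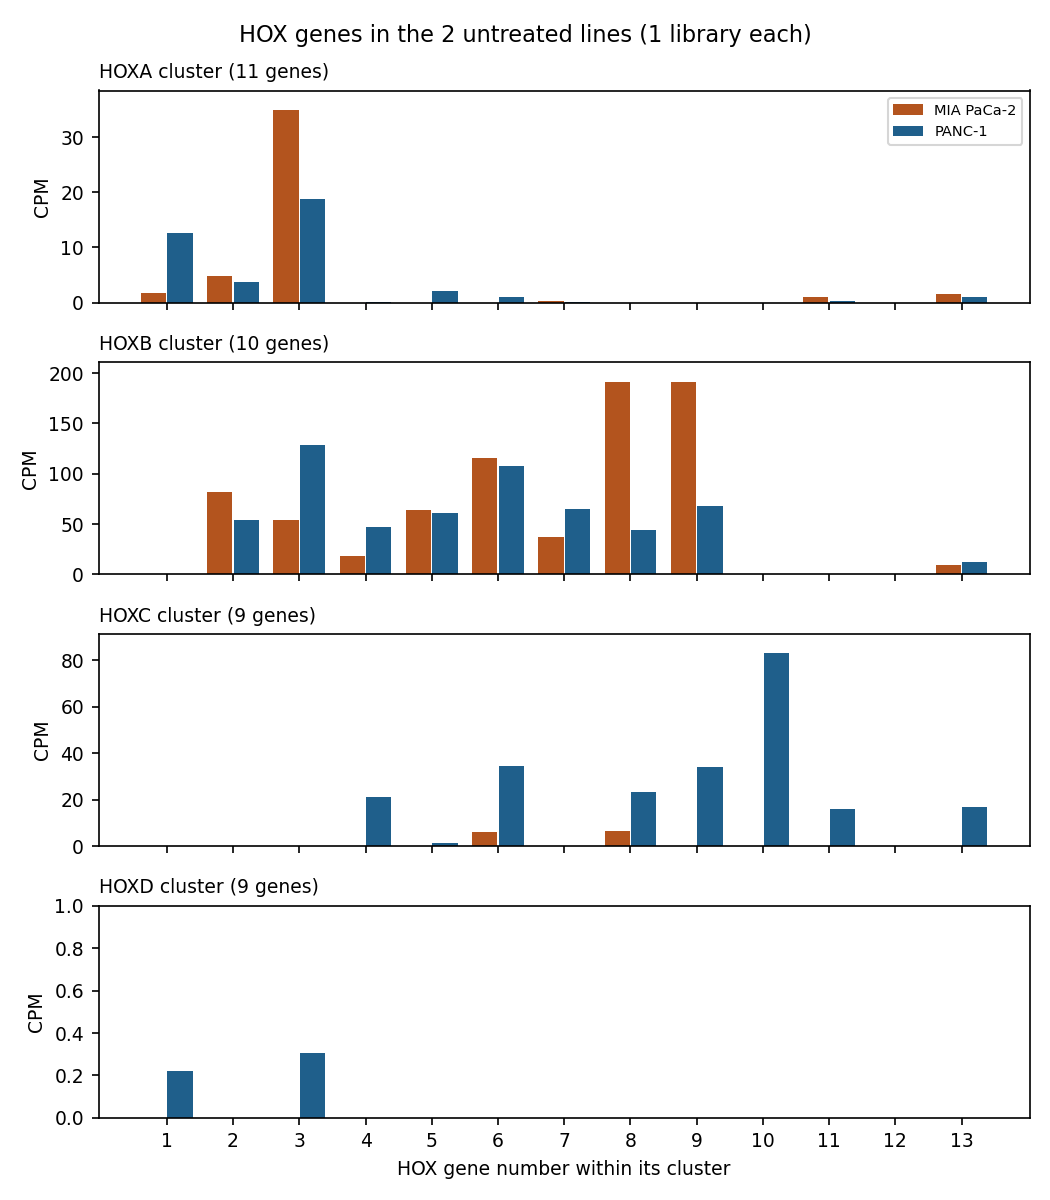
Levels of the HOX genes of each cluster (panels, 11, 10, 9 and 9 genes) by gene number, in CPM, in the MIA PaCa-2 and PANC-1 PBS libraries, 1 bar per library and a scale of its own for each panel. In the HOXC panel MIA PaCa-2 has bars only at genes 6 and 8, while in the HOXB panel both lines have bars over the same genes.

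Most genes of the germ line and the fetus were off in both lines, and those that were on were mostly higher in PANC-1. Of 30 such genes, 17 had 0 counts in both, 6 entered the comparison and 5 were called higher in PANC-1 and none in MIA PaCa-2. IGF2BP1 had 0 and 4569 counts, DDX43, a helicase of the testis, 0 and 763, and LIN28B, which blocks maturation of let-7 miRNAs, 0 and 647. MAGEA6, whose family members can share reads, had 0 counts in MIA PaCa-2 and 9.19 CPM in PANC-1. PRAME was at 18.4 and 199 CPM. The related IGF2BP3 was at 307 and 282 CPM, a log2 difference of -0.12. IGF2BP1, LIN28B and the let-7 target HMGA2 were thus all at 0 counts in MIA PaCa-2.

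Genes of the pathways mutated in pancreatic cancer differed in ways that counts alone can show. CDKN2A, the cell cycle inhibitor at 9p21, had 0 counts in both lines and in all 4 libraries. Its neighbour MTAP, a salvage enzyme, had 0 counts in MIA PaCa-2 and 42 in PANC-1. TGFBR2, the receptor kinase of TGF-β, had 0 counts in MIA PaCa-2 and 2464 in PANC-1, at least 803-fold higher, and KDM6A, a histone demethylase, had 0 and 954, at least 311-fold higher. SMAD4 was at 77.1 and 47.0 CPM, a log2 difference of -0.71. MYC was 2.56-fold higher in MIA PaCa-2, at 165 and 64.4 CPM. The chromatin remodeller ARID1A was 3.22-fold higher in PANC-1, at 82.6 and 266 CPM. BRCA2 was at 94.8 and 56.1 CPM. Of the 12 of 15 genes above the filter, 4 were called higher in PANC-1 and 2 in MIA PaCa-2, with a median of 0.36, and the test over both treatments gave 4 each way. No sequence change can be read from these counts.

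Receptors of growth factors were divided between the lines. Of 18 measured above the filter, 7 were called higher in PANC-1 and 9 in MIA PaCa-2, with a median of -0.39, and the test over both treatments gave 6 and 9. PANC-1 held more EGFR, at 608 CPM against 263, more MET, the receptor of hepatocyte growth factor, at 213 against 26.2, and more MST1R and EPHB2. The ligand NRG1 had 0 counts in MIA PaCa-2 and 1020 in PANC-1. MIA PaCa-2 held more of the EGF receptor ligands EREG, at 207 CPM against 12.0, and BTC, at 9.31 against 0.0440. Its insulin receptor, INSR, was at 57.2 CPM against 1.19, a 48.2-fold difference, and FGFR3 was at 24.1 against 5.81 CPM. ERBB2 was 2.74-fold higher in MIA PaCa-2. The receptor EGFR and its ligands AREG and EREG thus lay on opposite sides of the comparison.

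Of 32 members of the S and M phase list above the filter, 26 lay within a log2 difference of 1, against 8598 of 14805 over all genes. The list had 3 called each way and a median of -0.18. It also holds the cell cycle regulators CCND1 and CDKN1A, which are both among the 3 called higher in PANC-1. MKI67, a marker of cycling cells, was at 999 and 1243 CPM and CCNB1 (cyclin B1) at 415 CPM in both. In the test over both treatments 13 of 33 were higher in MIA PaCa-2 and 3 in PANC-1. FOXM1 was 2.53-fold, AURKB 2.47-fold and MCM4 2.31-fold higher in MIA PaCa-2. CCND1 (cyclin D1) was 2.66-fold and CDK1 2.06-fold higher in PANC-1, and CDK1 had a log2 difference of 0.91 with library totals. CDKN1A, an inhibitor of cyclin-dependent kinases, had 30 counts in MIA PaCa-2 and 1007 in PANC-1, a log2 difference of 4.95, and its log2 difference in the CBC libraries was 0.92.

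Of NRF2 and its regulators, 6 of 10 genes lay within a log2 difference of 1. Over all genes 8598 of 14805 did, so the list was near the share of all genes. NFE2L2 itself was at 78.7 CPM in MIA PaCa-2 and 170 CPM in PANC-1, a log2 difference of 1.11 with a counting interval of 1.03 to 1.19. It was 0.98 with library totals in place of TMM and 0.93 between the CBC libraries, both under the threshold. KEAP1 was at 68.8 and 102 CPM and the competing repressor BACH1 at 28.1 and 28.0 CPM. MAFK, a small MAF partner of NRF2, was 2.75-fold higher in PANC-1, and MAFF was 2.56-fold higher in MIA PaCa-2. The related NFE2L1 was 2.63-fold higher in PANC-1, and in the CBC libraries its log2 difference was -0.035. RBX1 and CUL3, which with KEAP1 form the ubiquitin ligase, had log2 differences of -0.07 and -0.02. The list of 10 had 3 called higher in PANC-1, 1 in MIA PaCa-2 and a median of 0.43, and the test over both treatments gave 2 and 1.

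Targets of NRF2 did not lie on one side. Of 42, 38 entered the comparison, with 11 called higher in PANC-1 and 12 in MIA PaCa-2 and a median of -0.12, and the test over both treatments placed 13 of 39 higher in PANC-1 and 14 in MIA PaCa-2. The 2 subunits of the enzyme that starts glutathione synthesis lay on opposite sides. The catalytic subunit GCLC was 6.08-fold higher in PANC-1, at 29.0 and 176 CPM, and the modifier subunit GCLM 3.36-fold higher in MIA PaCa-2, at 329 and 97.9 CPM. In the CBC libraries their log2 differences were 1.17 and -0.50. SLC7A11, the cystine importer, was at 20.1 and 69.1 CPM, and HMOX1, which degrades heme, at 10.6 and 38.8 CPM. NQO1, a quinone reductase, was 3.17-fold higher in MIA PaCa-2, at 459 and 145 CPM, and GSR, which recycles glutathione, 2.85-fold higher there, with log2 differences of -0.83 and -0.96 in the CBC libraries. TXNRD1 was at 493 and 608 CPM and SRXN1 had 90 and 77 counts, so these genes of thiol repair lay within a log2 difference of 1.

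Export pumps and carbonyl reductases gave the largest differences among the targets. ABCC3 had 108 counts in MIA PaCa-2 and 3998 in PANC-1, 36.2-fold higher, and ABCC1 was 7.97-fold higher in PANC-1. ABCC2 had 2935 and 24 counts, 125-fold higher in MIA PaCa-2. MGST1, a membrane glutathione transferase, was 7.67-fold higher in MIA PaCa-2. The aldo-keto reductases AKR1C1 to AKR1C3 are so alike that their reads can be shared, so they were summed, at 3790 counts in MIA PaCa-2 (170 CPM) and 0 in PANC-1. After CBC the sum was 578 and 0.146 CPM. Antioxidant response element letters, searched as TGACNNNGC on both strands, were in 7 of 28 matched promoters of the list (25%) and in 15.3% of all matched promoters. The storage subunits of ferritin, FTH1 and FTL, which have many processed copies, were 2.05-fold and 2.11-fold higher in MIA PaCa-2, with log2 differences of -0.70 and -0.85 in the CBC libraries.

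**Figure D4:**
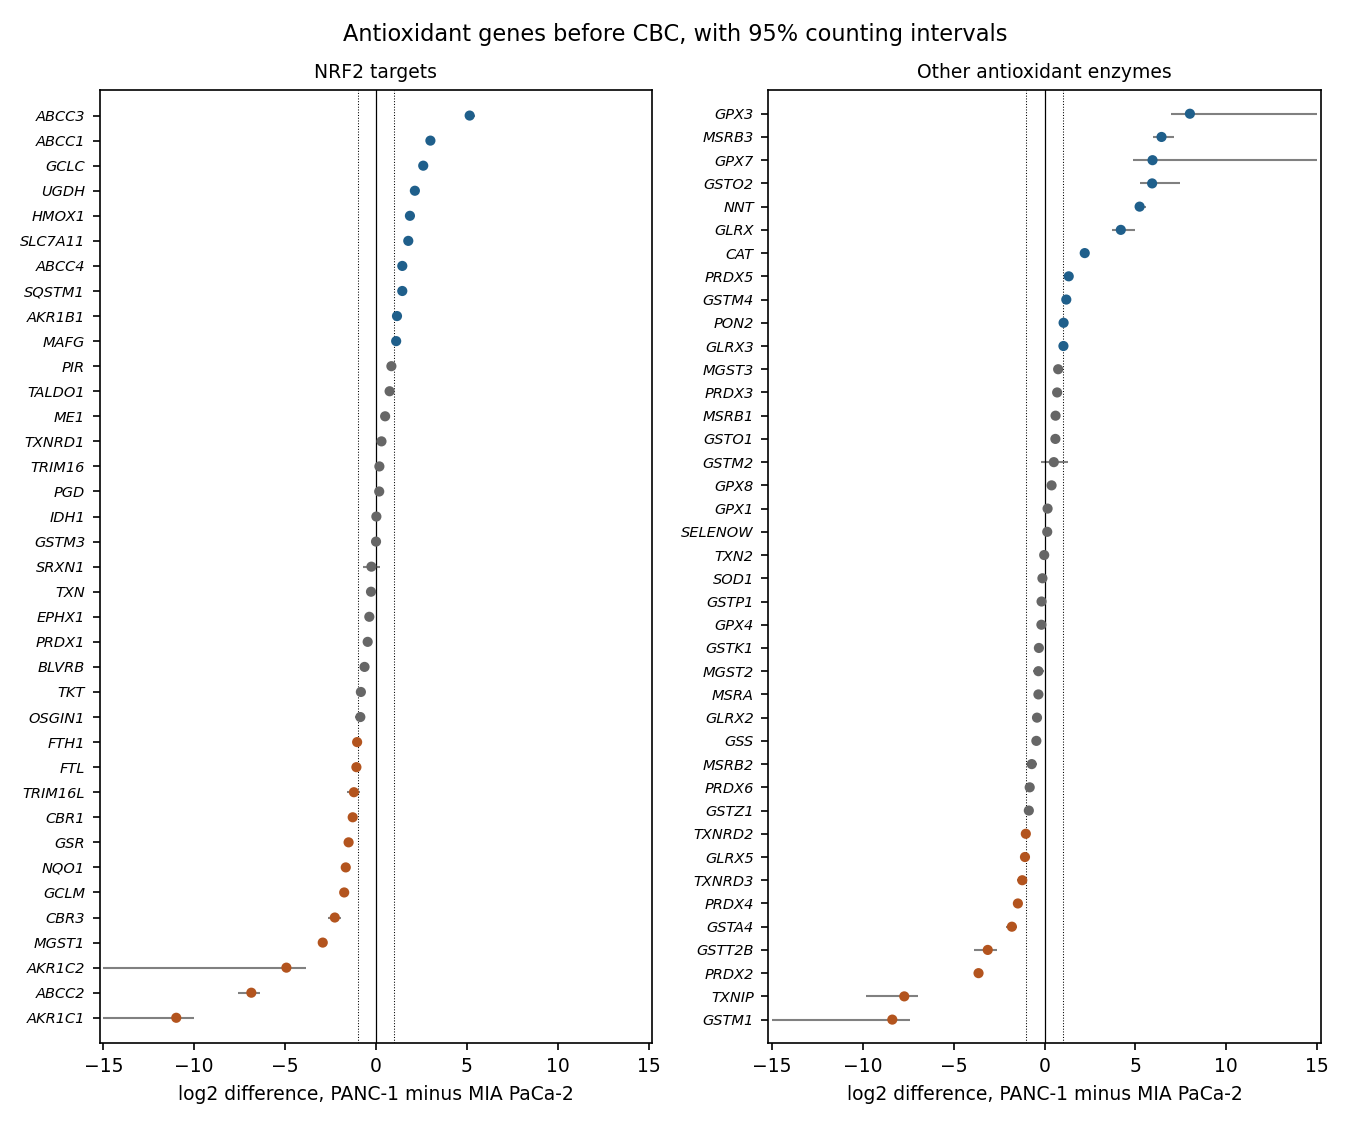
Log2 difference, PANC-1 minus MIA PaCa-2, of NRF2 targets (left) and other antioxidant genes (right) above the filter in the PBS libraries, with 1 target not drawn. Grey bars are 95% counting intervals, which run to the edge where one library had 0 counts, dotted lines mark -1 and 1, and colours mark genes past them. Points on both sides of 0 fill each panel, from ABCC3 at 5.15 to AKR1C1 at -10.99 (0 counts in PANC-1, so set by the prior count of 2) among the targets.

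Other antioxidant genes also lay on both sides. Of 40 above the filter, 11 were called higher in PANC-1 and 9 in MIA PaCa-2, with a median of -0.07, and the test over both treatments gave 12 and 9. The shares called over all genes were 24.0% and 18.0%. Enzymes within a log2 difference of 1 included SOD1. SOD1 was at 269 and 248 CPM, GPX1 at 70.8 and 79.3 CPM and GPX4, the enzyme that reduces lipid peroxides, at 205 and 182 CPM, with log2 differences of -0.12, 0.16 and -0.18. CAT (catalase) was 4.63-fold higher in PANC-1. The secreted peroxidase GPX3 had 0 counts in MIA PaCa-2 and 476 in PANC-1, MSRB3, which repairs oxidized methionine, had 28 and 2632, and GSTO2 had 8 and 605. NNT, the mitochondrial transhydrogenase that makes NADPH, had 91 and 3554 counts, 38.2-fold higher in PANC-1. PRDX2, a peroxiredoxin, was 12.5-fold higher in MIA PaCa-2, at 179 and 14.3 CPM. TXNIP, which binds thioredoxin, had 1417 and 5 counts, and GSTM1, a glutathione transferase with near copies, 609 and 0.

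Ferroptosis is death by iron-dependent lipid peroxidation, and its genes lay on both sides. Of 35 above the filter, 9 were called higher in PANC-1 and 5 in MIA PaCa-2, with a median of 0.24, and the test over both treatments gave 10 and 9 of 36. Over all genes 24.0% and 18.0% were called, so the list was near the share of all genes. In the CBC libraries 5 of the 9 and all 5 of those higher in MIA PaCa-2 were again past 1. ACSL4, which loads polyunsaturated fatty acids into membranes, was 5.08-fold higher in PANC-1, at 33.2 and 169 CPM. MBOAT1, which makes monounsaturated phospholipids, was 4.23-fold higher in PANC-1. SCD, which makes monounsaturated fatty acids, was 4.84-fold higher in MIA PaCa-2, at 1048 and 216 CPM. LPCAT3, which works with ACSL4, was 3.20-fold higher in MIA PaCa-2, as were FDFT1 of sterol synthesis (3.33-fold) and VDAC3 of the outer mitochondrial membrane (3.79-fold). The lipid peroxide suppressor AIFM2 (FSP1) was at 18.7 and 41.4 CPM, a log2 difference of 1.14, which was 0.20 in the CBC libraries. For iron, the reductase STEAP3 was 4.39-fold higher in PANC-1, the import receptor TFRC was at 804 and 489 CPM, and the exporter SLC40A1 had 0 counts in both.

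In the integrated stress response, ATF4 and several of its targets lay within a log2 difference of 1 and others far outside it. Of 36 genes above the filter, 24 lay within 1, with 8 called higher in PANC-1 and 4 in MIA PaCa-2 and a median of 0.22. Over all genes 8598 of 14805 lay within 1. The test over both treatments gave 8 each way of 37. ATF4 was at 207 and 243 CPM, TRIB3 at 26.2 and 32.2 CPM, ASNS at 107 and 171 CPM and PHGDH at 75.3 and 144 CPM, all within a log2 difference of 1. DDIT3 (CHOP) was 2.71-fold higher in PANC-1, with 192 and 532 counts. The secreted STC2 had 1 and 6652 counts, GDF15 had 5 and 407, and the chromatin protein NUPR1 had 5 and 279. MIA PaCa-2 held more CTH, the enzyme that makes cysteine, with 606 counts against 77, more WARS1, 4.99-fold, and more PCK2, 4.74-fold. In the CBC libraries the log2 differences were 0.07 for DDIT3, 1.14 for GDF15 and 2.59 for NUPR1.

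Most chaperones lay within a log2 difference of 1, as did 8598 of the 14805 genes in the comparison. Of 23 ER chaperones and related genes, 18 lay within a log2 difference of 1, with 4 called higher in PANC-1 and 1 in MIA PaCa-2. HSPA5 (BiP) was at 607 and 731 CPM, XBP1 at 81.8 and 48.2 CPM, HERPUD1 at 31.0 and 20.8 CPM and ERO1A at 179 and 131 CPM. EDEM1 was 2.82-fold, DNAJC3 2.50-fold and SEL1L 2.21-fold higher in PANC-1, and in the CBC libraries the log2 differences of DNAJC3 and SEL1L were -0.55 and 0.37. The median of the list was 0.09, and -0.045 when library totals replaced TMM, and the test over both treatments placed 1 gene higher in PANC-1 and 3 in MIA PaCa-2. Of 19 heat shock genes, 13 lay within 1 and 5 were called higher in PANC-1 and 1 in MIA PaCa-2, with a median of 0.16. HSPB8 had 0 counts in MIA PaCa-2 and 259 in PANC-1, BAG3 was 2.47-fold higher in PANC-1, and HSPA1A, which shares reads with a near-identical copy, 2.38-fold. In the CBC libraries their log2 differences were 0.025 and -0.34. HSP90AA1 was 2.66-fold higher in MIA PaCa-2, at 4170 and 1568 CPM. HSPB1 (533 and 322 CPM), HSPH1 (520 and 291 CPM) and the factor HSF1 (135 and 80.7 CPM) were within a log2 difference of 1. In the test over both treatments 7 of 19 heat shock genes were higher in MIA PaCa-2 and 2 in PANC-1.

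Metallothioneins, which bind zinc and copper, summed to 885 CPM in MIA PaCa-2 and 485 CPM in PANC-1 over 8 genes. Of the 5 above the filter, 1 was called higher in PANC-1 and 3 in MIA PaCa-2, with a median of -1.68, and the test over both treatments gave 1 and 4. MT1G had 713 counts and 0, MT1X was 4.37-fold and MT1E 3.20-fold higher in MIA PaCa-2, and MT1A was 3.05-fold higher in PANC-1, with a log2 difference of 0.57 in the CBC libraries. MT2A was at 501 and 341 CPM. These genes are close copies of each other, so single values are uncertain, while the sum is less so.

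Immediate early and inflammatory genes lay on both sides. Of 32 such genes above the filter, 14 were called higher in PANC-1 and 11 in MIA PaCa-2, with a median of 0.80, while the test over both treatments placed 9 of 35 higher in PANC-1 and 15 in MIA PaCa-2. In the CBC libraries 8 of the 14 were again past 1, and all 11 of those higher in MIA PaCa-2 were. Chemokines that attract neutrophils were on in MIA PaCa-2. CXCL1, CXCL2, CXCL3, CXCL5 and CXCL8 summed to 219 CPM in MIA PaCa-2 and 8.27 CPM in PANC-1. CXCL8 had 1613 and 35 counts, CXCL5 had 815 and 0, and CXCL1 had 2248 and 145. CCL2, which attracts monocytes, lay the other way with 0 and 518 counts, as did the adhesion protein ICAM1 with 1 and 754 and IL18 with 7 and 668. IL6 had 0 counts in both. ZFP36, which speeds decay of cytokine RNAs, had 135 and 7396 counts, 53.6-fold higher in PANC-1. EGR1 was 4.54-fold and FOS 2.98-fold higher in MIA PaCa-2. FOSB lay the other way with PBS, at 16 and 165 counts, and had 626 and 127 counts in the CBC libraries.

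Interferon and antigen presentation genes lay on both sides as well. Of 34 above the filter, 11 were called higher in PANC-1 and 9 in MIA PaCa-2, with a median of 0.07, or -0.058 with library totals, and the test over both treatments placed 5 of 36 higher in PANC-1 and 12 in MIA PaCa-2. The shares called over all genes were 24.0% and 18.0%. In the CBC libraries only 3 of the 11 were again past 1, and all 9 of those higher in MIA PaCa-2 were. IRF7 had 0 counts in MIA PaCa-2 and 266 in PANC-1, OAS3 was 19.7-fold higher in PANC-1 and the immunoproteasome subunit PSMB8 6.44-fold. IFITM1 had 694 and 5 counts, and IFIT2 and IFIT3 were 18.5-fold and 14.9-fold higher in MIA PaCa-2. B2M, the light chain of MHC class I, was 2.07-fold higher in PANC-1, and its log2 difference was 0.44 in the CBC libraries and 0.92 with library totals.

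The receptors that cannabinoids can act on were unevenly present before CBC. CNR1, the CB1 receptor, had 0 counts in both PBS libraries, and CNR2, the CB2 receptor, had 1 count in MIA PaCa-2 and 3 in PANC-1, at or under the limit of 3. The channel TRPV1 had 287 and 103 counts, 2.85-fold higher in MIA PaCa-2, with a counting interval of the log2 difference of -1.85 to -1.18 and a difference of -0.98 in the CBC libraries. TRPV2 lay the other way with 4 and 968 counts, TRPM8 had 23 and 263, and TRPV4 had 69 and 4. The nuclear receptor PPARG was 37.8-fold higher in PANC-1, with 26 and 1005 counts, and PPARA was at 21.9 and 21.6 CPM. The enzymes MGLL and FAAH, which break down endocannabinoids, were 16.8-fold and 12.5-fold higher in PANC-1, at 0.270 to 7.87 CPM. Of 17 genes above the filter, 8 were called higher in PANC-1 and 3 in MIA PaCa-2, with a median of 0.88, and the test over both treatments gave 7 and 3.

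Neighbouring genes often differed together. Over 13534 windows of 50 neighbouring genes, the median log2 difference ran from -1.41 to 2.95. The window with the highest median lay on chromosome 19 from ACTN4 to MIR641, which lies within AKT2, at 38647649 to 40285536 on GRCh38. In it 46 of 50 genes were called higher in PANC-1 and 0 in MIA PaCa-2, and 49 were above 0. ACTN4, which cross-links actin, was at 788 and 3672 CPM. AKT2, a kinase of the insulin pathway, was at 204 and 2581 CPM, and PAK4, a kinase of the cytoskeleton, at 95.1 and 464 CPM. The transcription elongation genes PAF1 and SUPT5H were at 68.7 and 1705 CPM and at 208 and 1958 CPM. PLEKHG2 was at 24.7 and 2075 CPM, MED29 at 60.1 and 1016 CPM, PSMC4 of the proteasome at 151 and 1923 CPM and FBL of the nucleolus at 290 and 2004 CPM. ZFP36, named among the inflammatory genes, and LGALS4, named among the classical genes, also lie in it. The same window had a median of 2.64 between the CBC libraries.

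Other regions with PANC-1 higher lay on chromosome 11 between SLC22A18AS and NRIP3 (median 1.72), on chromosome 19 between ZNF611 and TNNI3 (1.64), on chromosome X (1.63, 36 of 50 genes called higher in PANC-1) and on chromosome 9 between SHB and OSTF1 (1.51). Those with MIA PaCa-2 higher lay on chromosome X (-1.41, the lowest, with 34 of 50 genes called higher in MIA PaCa-2), on chromosome 8 between LZTS1 and FBXO16 (-1.39) and between GSR and POMK (-1.36), on chromosome 12 between LAG3 and TAS2R15P (-1.36) and on chromosome 14 between ZFHX2 and SPTSSA (-1.25). GSR, the NRF2 target that was higher in MIA PaCa-2, opens the second of the windows on chromosome 8. Window medians of the PBS and CBC pairs had a Pearson correlation of 0.958, over overlapping windows. By whole chromosome the median was highest on chromosome 10 (0.86, 553 genes), chromosome 15 (0.72) and chromosome 11 (0.68), and lowest on chromosome 14 (-0.51, 470 genes), chromosome 21 (-0.42) and chromosome 8 (-0.37). On chromosome 10, 44.3% of genes were called higher in PANC-1 and 10.5% in MIA PaCa-2. Copy number was not measured in these libraries.

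**Figure D5:**
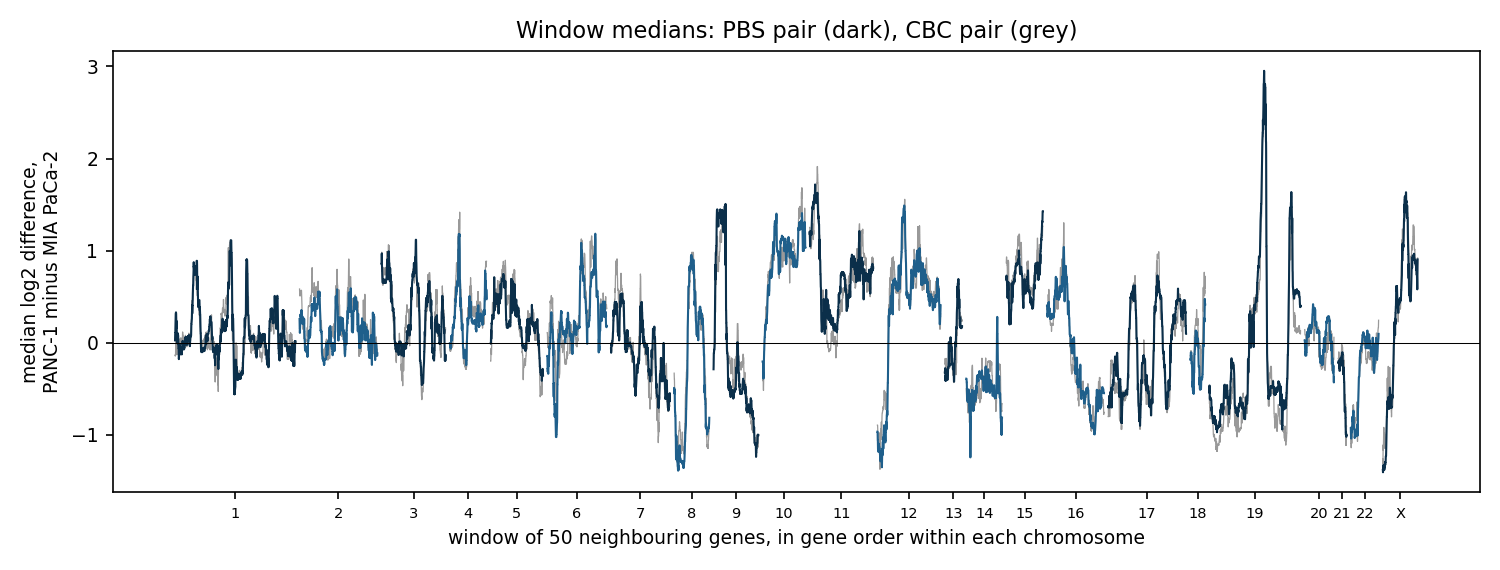
Median log2 difference, PANC-1 minus MIA PaCa-2, over windows of 50 neighbouring genes in gene order within each chromosome. Dark lines are the PBS pair, with shades alternating by chromosome, and the grey line is the CBC pair. The peak on chromosome 19 reaches 2.95, and the grey line follows the dark line along most chromosomes.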

How the data were processed

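The authors sequenced stranded libraries of polyadenylated RNA from paired ends. Adapters were removed with cutadapt 2.7, STAR placed the reads on GRCh38, and HTSeq gave the counts of each Ensembl gene. Its strand setting is not given in the sources used here, so overlapping and antisense genes may share reads. The deposited table holds raw counts of 58233 gene identifiers, of which 57392 matched a symbol. The authors also deposited a normalized signal, CPM on TMM-scaled library sizes, which matched the counts to a relative difference of 6.84e-09 and served only as an alternative.

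Log2 differences came from edgeR 4.0.16 (TMM over 4 libraries, prior count 2) in R 4.3.3, and counting intervals from scipy 1.17.1. Positions came from GENCODE 44. With 1 library per condition the labels do not say that the libraries are separate cultures. The test over both treatments takes its spread from how far the line difference changed between PBS and CBC. Its p-values therefore do not measure the spread between repeated cultures. The test and the intervals were tested on simulated data. In the data simulated for the test both lines had the same treatment response. A line difference that changes with treatment was therefore not covered.

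Members, gene lists and comparisons were chosen with earlier results of these data known, so no list supports its own direction. Named genes were the 10 with the largest difference each way among protein-coding genes at 50 CPM or more, the 10 highest silent in each line, the defining members of each list and the 3 members with the largest difference each way at 10 CPM or more, besides genes at the ends of windows. Further genes were named after their values were seen. Genes at 0 in a line were compared against 3 counts, and a list median with these genes at that bound was the same for all lists whose median is given. SOD2 was not matched and is not analysed here. Some list members are counted but not reported here by name. Alternatives changed the filter, scaling, prior count, gene type, deposited CPM, block, tool (DESeq2 1.42.0) and libraries.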

Additional observations from a re-analysis of the deposited data

Results flagged for a closer look

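Of 501 list members above the filter, 285 were called between the PBS libraries. For 6 of these 285 the line difference was past 1 the other way between the CBC libraries. Over all genes, 19 of the 3548 called higher in PANC-1 and 7 of the 2659 called higher in MIA PaCa-2 did so. With 1 library per condition these changes of side were not tested. FOSB, an immediate early factor, had a log2 difference of 3.19 with PBS (16 and 165 counts in MIA PaCa-2 and PANC-1) and 626 and 127 counts with CBC. HSPA6, a heat shock protein kept off in unstressed cells, had a log2 difference of 2.06 with PBS (11 and 53 counts) and 289 and 43 counts with CBC. ALOXE3, an epidermal lipoxygenase, had 1.73 with PBS (51 and 177 counts) and 970 and 461 counts with CBC. OAS2, an antiviral enzyme, had 1.35 with PBS (10 and 29 counts) and 83 and 24 counts with CBC. ISG15, an interferon-induced modifier, had 1.31 with PBS (263 and 669 counts) and 4166 and 679 counts with CBC. TNFAIP3, an NF-kB inhibitor, had 1.08 with PBS (60 and 132 counts) and 875 and 220 counts with CBC. In each case PANC-1 was higher with PBS and MIA PaCa-2 with CBC.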

How the results depend on the processing

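The filter moved the counts of called genes most. They were 5714 with PANC-1 higher and 5164 with MIA PaCa-2 higher with no filter, 2066 and 1528 at 1 CPM in both libraries, and 2264 and 1356 at 10 CPM in 1 library. Under the other scalings, prior counts, gene type, deposited CPM, counting intervals and the CBC pair, they stayed within 1.5 times. The excess on the PANC-1 side depended on the scaling, however. PANC-1 took 57.2% of the calls as reported and 51.1% with library totals, at 3182 and 3046 calls. Library totals moved the median over all genes from 0.10 to -0.04 and turned the medians of the ER chaperone list (-0.045) and the interferon list (-0.058), and 15 rather than 17 of 25 lists then had a median above 0. Genes silent in MIA PaCa-2 numbered 198 when 20 CPM was asked in the other line, and those silent in PANC-1 numbered 59 at 0 counts, 137 at 5 CPM and 53 at 20 CPM.

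For the test over both treatments, DESeq2 gave 3621 and 2847 calls, library totals 3871 and 3829, and leaving out the treatment block 2498 and 1753. Every library moved its calls by over 1.5 times when left out, with PANC-1 higher from 1235 (without PANC-1 CBC) to 2357 (without MIA PaCa-2 CBC) and MIA PaCa-2 higher from 470 (without PANC-1 CBC) to 1564 (without MIA PaCa-2 PBS). In those fits one line has 1 library, assumed to vary like the other. The cause of these moves was not tested, beyond the fewer libraries and the removed block. Of the named genes called between the PBS libraries, 9 had the other sign between the CBC libraries. They were NFE2L1 (-0.035), DNAJC3 (-0.55), HSPA1A (-0.34), FOSB (-2.42), HSPA6 (-2.83), ALOXE3 (-1.21), OAS2 (-1.84), ISG15 (-2.76) and TNFAIP3 (-2.12). No other scaling, prior count or pseudocount turned a called named gene. Named genes within a log2 difference of 1 with PBS are not in this count. Among them CUL3 and RBX1 were below 0 with PBS and at 0.86 and 0.67 between the CBC libraries. No paired analysis was possible because each group has 1 library and the labels give no replicate numbers, other than the pairing of the lines within each treatment that the treatment block makes. Levels under 0.135 CPM in MIA PaCa-2 and 0.132 CPM in PANC-1 cannot be told from 0 at this depth.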
